A study of Mus musculus with 12 samples.

Results

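The liver makes most of the complement and clotting proteins of plasma. Transcripts of 43 such genes, taken by their symbols from the deposited table of 15910 genes, were followed in hepatocytes of mice with a tumour outside the liver. All 43 were in the table, and all passed the filter on low values in the PBS mice of day 21 as well as over the 12 libraries. They comprise 21 complement genes and 22 coagulation genes, which include anticoagulants, contact proteases and fibrinolytic genes. The mice were female, of strain Balb\c and 8 weeks old when injected. The tumour mice received 4T1 BC cells orthotopically and were taken at day 4 or at day 21. 4T1 is a transplantable breast carcinoma line derived from this strain. The PBS mice received PBS in their place and were taken on the same days. Each of the 4 groups had 3 libraries of hepatocytes dissociated after liver perfusion. Each library was taken as 1 mouse, although most day 21 names carry a letter (8b, 9a, 10a, 11a, 12b) that the labels do not explain. The labels name no sort for hepatocytes, no measure of tumour size and no genetic change in any group.

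Complement is a cascade of plasma proteases that marks surfaces for uptake and punctures membranes. Lectin, classical and alternative routes converge on C3, and cleavage of C5 then starts assembly of the terminal membrane attack complex. Clotting is a parallel protease cascade that ends in thrombin and fibrin, and it is held back by the protein C system and by serpins. Hepatocytes secrete components of both cascades, and several complement components are known acute-phase proteins of the liver.

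Recovered depth was 9375095 to 21809166 reads per library. Tumour day 21 replicate 7 stood apart from the rest: its median correlation (Pearson, over genes) with the remaining libraries was 0.83, against 0.926 for 8b, 0.937 for 9a and 0.961 to 0.973 for each of the other libraries. The 10 hepatocyte markers were all present, with a summed normalized count of 1583000 to 2083000 in tumour mice and 2193000 to 2527000 in PBS mice at day 21. Most of that sum was Alb, with a mean of 1252000 in tumour mice and 1675000 in PBS mice. Apoa1, Tat and Pck1 had higher means in tumour mice, and the remaining hepatocyte markers had lower ones. Of the markers of other cells, the neutrophil, monocyte and platelet sums were higher in each tumour mouse than in each PBS mouse at day 21. The Kupffer, sinusoidal endothelial and stellate sums overlapped between the groups. The 16 neutrophil markers summed to 26470 to 117100 in tumour mice and 102.3 to 427.2 in PBS mice, where Retnlg and Ly6g were at 0. The 10 monocyte markers summed to 1879 to 10950 in tumour mice and 415 to 583.2 in PBS mice, with S100a4 at 0 in the PBS mice. The 14 Kupffer and macrophage markers summed to 6518 to 31000 in tumour mice and 4858 to 6957 in PBS mice. Sums for 13 sinusoidal endothelial markers were 3869 to 14890 in tumour mice and 5041 to 7134 in PBS mice. Sums for 11 stellate cell markers were 2737 to 9826 in tumour mice and 3184 to 5366 in PBS mice. The 8 platelet markers summed to 123 to 468.5 in tumour mice and 35.73 to 46.94 in PBS mice, where Gp1bb, Gp9 and Mmrn1 were at 0. Replicate 7 held the highest sum of each of these 6 lists among the tumour mice of day 21. The part of these cells in the results below was not tested, except where a value is given.

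At day 21 C9, C8a, C4b, Serping1 and Pros1 rose and Klkb1 fell, in tumour mice, out of the 43 genes (limma adjusted p under 0.05 over all tested genes). Of the complement genes 4 of 21 (19.0%) rose and 0 fell, and of the coagulation genes 1 of 22 (4.55%) rose and 1 (4.55%) fell. Of all 12631 genes tested, 5.42% were called higher and 2.44% lower. Among the 3845 genes with a mean of at least 500, which include 42 of the 43, these shares were 2.05% and 4.6%. The coagulation count is thus near the background in both directions. The log2 fold change was positive for 19 of 21 complement genes and 10 of 22 coagulation genes, against 51.9% of all genes. The coagulation count was 16 of 22 without tumour replicate 7 and 6 of 22 without tumour replicate 8b, and the complement count 19 and 16 of 21. The median log2 fold change was 0.45 over the complement genes, -0.01 over the coagulation genes and 0.02 over all genes tested. Tumour and PBS values did not overlap for 10 complement genes, 9 of them higher and 1 lower in tumour mice, and for 7 coagulation genes, 3 higher and 4 lower. Over all genes 17.2% were higher without overlap and 15.4% lower, so the coagulation genes again gave little beyond the background. In bulk RNA fewer hepatocytes in a sample and less RNA per hepatocyte cannot be told apart.

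**Figure D1:**
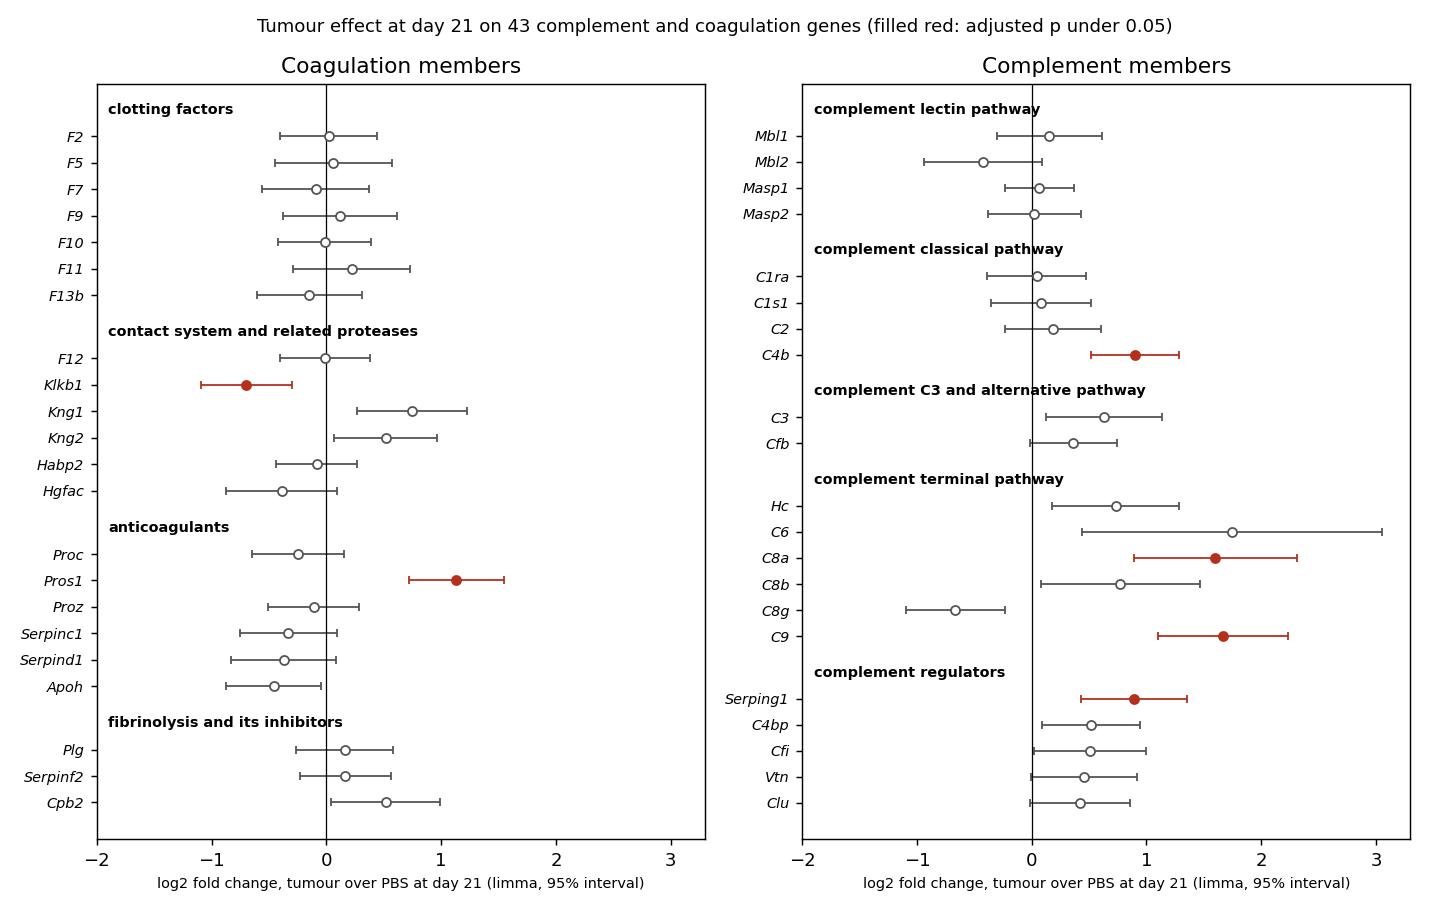
Log2 fold change of tumour over PBS at day 21 for each coagulation gene (left) and complement gene (right), by class; points are limma estimates, bars 95% intervals, and filled red points have an adjusted p under 0.05. The complement estimates lie mostly right of 0, with C6, C9 and C8a between 1.60 and 1.75, and the clotting factors lie within 0.22 of 0.

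The terminal pathway held the widest spread of all classes. Its 6 genes encode C5 (Hc in the mouse), C6, the alpha, beta and gamma chains of C8, and C9, which polymerizes into the membrane pore. Their median log2 fold change at day 21 was 1.19. C9 had normalized counts of 6626, 12501 and 10793 in tumour replicates 7, 8b and 9a, against 3605, 2843 and 2723 in PBS replicates 10a, 11a and 12b. The lowest tumour mouse was well above the highest PBS mouse. The means were 9973 ± 3022 in tumour mice and 3057 ± 478.4 in PBS mice (SD, n = 3 each), a log2 fold change of 1.67 (SE 0.26, limma adjusted p = 0.00293). C9 kept its call in each alternative run.

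C8a, the alpha chain that inserts into the membrane, had 11522, 21132 and 12494 in tumour mice, against 5689.9, 3494 and 5478 in PBS mice. The groups did not overlap, and replicate 8b was the highest of the 6. C8a rose by 1.60 on the log2 scale (SE 0.33, limma adjusted p = 0.0118). Without PBS day 21 replicate 11a, which had the lowest C8a value, the log2 fold change was 1.38 and the adjusted p 0.0531. C8b, the beta chain that docks to the growing complex, had 2156, 4332 and 2928 in tumour mice, against 2505, 1173 and 1863 in PBS mice. These overlapped, and the log2 fold change of 0.77 missed the threshold (limma adjusted p = 0.165).

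C8g, the gamma chain, a lipocalin bound to the alpha chain, lay in the other direction. It had 2379, 3252 and 4036 in tumour mice, against 5089, 5546 and 4402 in PBS mice. Each tumour mouse was below each PBS mouse, and the log2 fold change was -0.66 (95% interval -1.10 to -0.23, limma adjusted p = 0.0638). It passed with total scaling (adjusted p = 0.0364), in DESeq2 (0.0166) and without tumour replicate 9a (0.0226). Within a library, the normalized count of C8a divided by that of C8g was 4.84, 6.50 and 3.10 in tumour mice, against 1.12, 0.63 and 1.24 in PBS mice. The ratio of C8b to C8g was 0.906, 1.33 and 0.725 in tumour mice, against 0.492, 0.212 and 0.423 in PBS mice. Both ratios were higher in each tumour mouse than in each PBS mouse of day 21. These ratios are independent of library scaling, though each chain has its own transcript length.

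C6, which binds C5b at the start of assembly, was the lowest of the 43 genes. It had 801, 183 and 368 in tumour mice, against 148, 93.9 and 101 in PBS mice. The groups did not overlap, and the value of replicate 7 was far above the rest. The log2 fold change was 1.75 with a wide 95% interval of 0.44 to 3.05 (limma adjusted p = 0.101). C6 passed in edgeR on recovered reads (2.01, adjusted p = 0.037), and without replicate 8b (2.27, adjusted p = 0.0427). It was the exception to the order of the tumour mice: replicate 7 was the lowest of the 3 for 41 of the 43 genes and the highest for C6 alone. Replicate 7 also had the highest Kupffer, endothelial and stellate marker sums, and their part in C6 was not tested. Hc, the gene of C5, had 18143, 26796 and 21938 in tumour mice, against 13259, 13128 and 13369.5 in PBS mice. No tumour value fell within the narrow PBS range, and the log2 fold change was 0.73 (95% interval 0.18 to 1.28, limma adjusted p = 0.102).

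**Figure D2:**
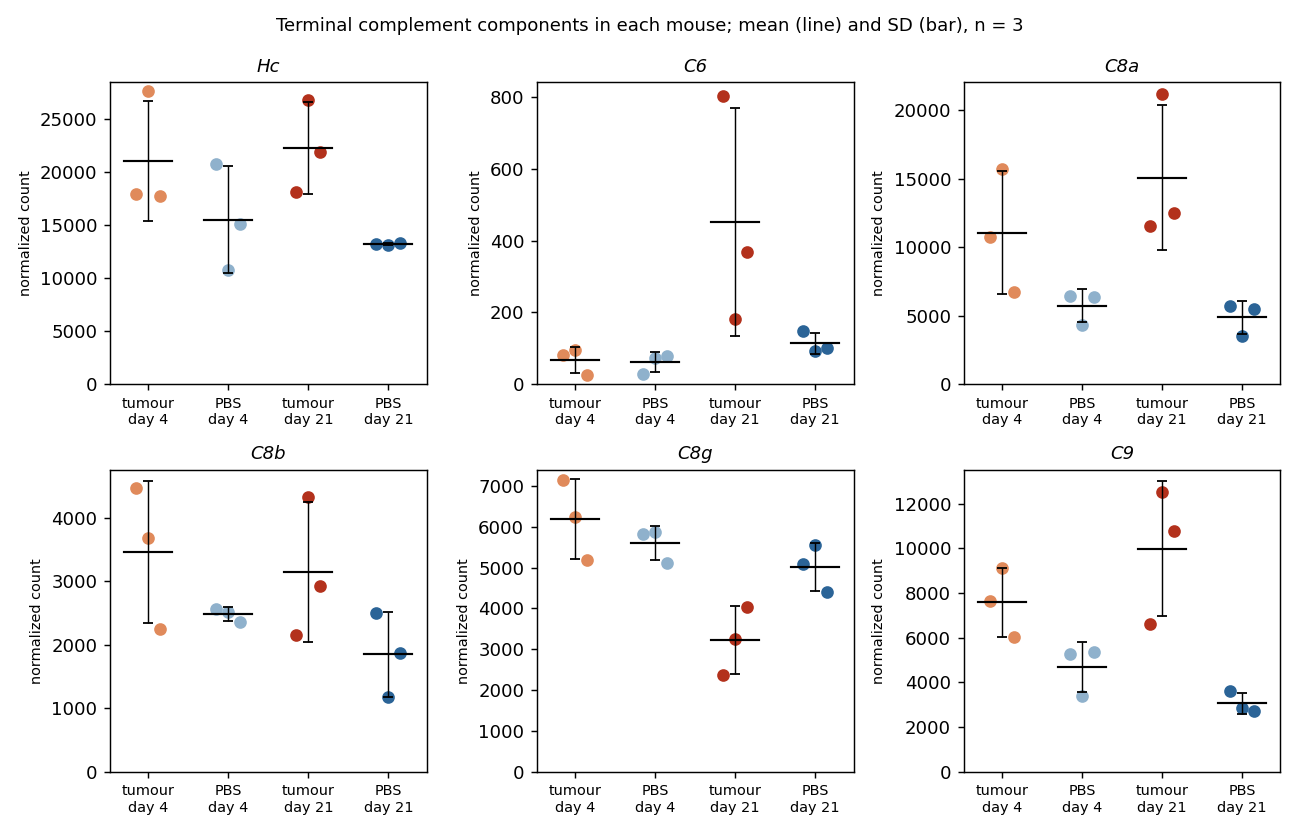
Normalized counts of the 6 terminal complement genes in each mouse (points) by group, with the mean (line) and SD (bar) of 3 mice. At day 21 Hc, C6, C8a and C9 are higher in each tumour mouse than in each PBS mouse, C8g is lower, and C8b overlaps.

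The sequences before the RefSeq start sites of C8a, C8b, C8g, C9 and Hc are shown because C8g lay in the other direction from C8a and C8b. Each window holds 250 bases of GRCm38.p6, read on the strand of its gene. Capitals mark matches, on either strand, to TTCNNNGAA for STAT factors in C8a, to TTGCNNAA for C/EBP factors in C9 and, in Hc, to the HNF1 motif, which is GTTAAT, any base and ATT. The windows are chr4:104876399-104876648 (minus strand) for C8a, chr4:104766067-104766316 (plus) for C8b, chr2:25501720-25501969 (minus) for C8g, chr15:6445096-6445345 (plus) for C9 and chr2:35061413-35061662 (minus) for Hc.
C8a: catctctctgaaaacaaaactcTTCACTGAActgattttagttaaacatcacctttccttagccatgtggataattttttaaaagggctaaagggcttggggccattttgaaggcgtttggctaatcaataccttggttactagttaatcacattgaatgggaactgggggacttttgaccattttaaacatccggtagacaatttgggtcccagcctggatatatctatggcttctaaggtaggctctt
C8b: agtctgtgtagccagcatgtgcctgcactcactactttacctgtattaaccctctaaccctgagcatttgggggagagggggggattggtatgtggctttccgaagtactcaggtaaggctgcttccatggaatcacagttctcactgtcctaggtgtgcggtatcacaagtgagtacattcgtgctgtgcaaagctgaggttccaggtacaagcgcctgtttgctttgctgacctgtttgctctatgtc
C8g: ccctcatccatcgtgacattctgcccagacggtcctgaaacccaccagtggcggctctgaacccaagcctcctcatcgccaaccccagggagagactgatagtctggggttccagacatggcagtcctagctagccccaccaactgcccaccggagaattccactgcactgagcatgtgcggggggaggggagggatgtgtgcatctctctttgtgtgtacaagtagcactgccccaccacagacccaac
C9: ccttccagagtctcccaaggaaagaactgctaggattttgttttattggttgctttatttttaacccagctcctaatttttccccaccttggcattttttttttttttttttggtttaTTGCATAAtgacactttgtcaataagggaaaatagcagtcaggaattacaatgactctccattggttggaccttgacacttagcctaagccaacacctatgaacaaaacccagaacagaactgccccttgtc
Hc: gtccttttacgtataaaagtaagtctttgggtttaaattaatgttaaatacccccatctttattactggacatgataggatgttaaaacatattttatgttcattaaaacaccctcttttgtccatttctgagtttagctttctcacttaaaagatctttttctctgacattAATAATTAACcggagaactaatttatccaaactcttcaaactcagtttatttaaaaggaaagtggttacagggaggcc
The C8a match starts at position -228 from the start site, the C9 match at -132 and the Hc match at -78. None of the 7 motifs searched occurs in these windows of C8b and C8g, which says only that those letters are not there. C8g has another RefSeq start, whose window (chr2:25500507-25500756, minus strand) is not shown and holds none of the motifs either. A match is a description of the sequence and not a binding site.

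Of the classical pathway genes, C4b rose and the other 3 did not pass. C4b encodes the fourth component, which is cleaved to form the C3 convertase. It had 25539.5, 36681 and 31172 in tumour mice, against 17034, 16781 and 15701 in PBS mice. All tumour values lay above all PBS values, with a log2 fold change of 0.90 (SE 0.18, limma adjusted p = 0.00916). Without PBS day 21 replicate 12b the limma adjusted p was 0.051. Its paralog C4a shares sequence with it, as 34.6% of the 50-base windows of C4b transcripts also occur in those of C4a, so reads could be split between them. C4a itself also rose, by 0.93 (limma adjusted p = 0.00313). The proteases C1ra and C1s1, which activate C4 and C2, had log2 fold changes of 0.04 and 0.08, and C2 had 0.18. All 3 overlapped between the groups.

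C3, on which the routes converge, was the most abundant of the 43 transcripts. It had 192667, 320503 and 239853 in tumour mice, against 159814, 156909 and 159930.0 in PBS mice. The PBS mice differed little from each other, and each tumour mouse was above them. The log2 fold change was 0.63 (95% interval 0.12 to 1.13), which missed the threshold (limma adjusted p = 0.125). It passed in DESeq2 (0.66, adjusted p = 0.0138). Of all reads, C3 took 1.68% ± 0.333 in tumour mice and 1.06% ± 0.0311 in PBS mice (SD, n = 3 each). Cfb, factor B of the alternative pathway, had a log2 fold change of 0.36 (limma adjusted p = 0.237).

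The lectin pathway showed no member past the threshold. Mbl1 and Mbl2 encode the mannose-binding lectins A and C of the mouse. Mbl1 had 2171, 3327 and 2762 in tumour mice, against 2301, 2235 and 2815 in PBS mice, and the groups overlapped (log2 fold change 0.15). Mbl2 had 4715, 5777 and 9608 in tumour mice, against 9763, 8438 and 7667 in PBS mice. Replicates 7 and 8b lay below the PBS range and 9a within it, and the log2 fold change was -0.42 (95% interval -0.94 to 0.09, limma adjusted p = 0.31). Without replicate 9a, Mbl2 passed (-0.72, adjusted p = 0.039). The proteases Masp1 and Masp2 had log2 fold changes of 0.07 and 0.02, and Masp2 exons overlap those of Tardbp on the other strand over 56.3% of their length.

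All 5 complement regulators had a positive log2 fold change, with a median of 0.51, and 1 of them rose. Serping1 encodes C1 inhibitor, a serpin that blocks C1r, C1s, kallikrein and factor XII. It had 17511, 24179 and 22320.1 in tumour mice, against 14515, 10119.7 and 10067 in PBS mice. The groups were separate, with a log2 fold change of 0.89 (SE 0.21, limma adjusted p = 0.0235). Leaving out tumour replicate 8b or PBS replicate 11a or 12b of day 21 ended the call (largest limma adjusted p = 0.109), and so did a fit to the 6 libraries of day 21 (0.0689). C4bp, C4b-binding protein, and Cfi, the factor I protease that inactivates C3b and C4b, had 0.52 and 0.51, with limma adjusted p = 0.136 and 0.202. Both were separate between the groups. Vtn, vitronectin, and Clu, clusterin, which keep terminal complexes off membranes, had 0.45 and 0.42 and overlapped.

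The clotting factors held close to no change at day 21. None of the 7 passed, and their log2 fold changes ran from -0.15 (F13b) to 0.22 (F11), with a median of 0.02. F2, prothrombin, had 23261, 36112 and 33640.1 in tumour mice, against 31993, 30164 and 28193 in PBS mice. Replicate 7 was below the PBS range and replicates 8b and 9a above it. Its log2 fold change was 0.02, with a 95% interval of -0.41 to 0.45. F5, F7, F9 and F10, the cofactor factor V and the vitamin K dependent proteases around it, had 0.06, -0.09, 0.12 and -0.02. All 7 factors overlapped between the groups. Their intervals leave out a change of 1 on the log2 scale in either direction.

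In the contact system, which starts the intrinsic route and releases bradykinin, 1 of 6 genes passed. Klkb1, plasma prekallikrein, had 1027, 1438 and 1514 in tumour mice, against 2061, 2328 and 1988 in PBS mice. Each tumour mouse was below each PBS mouse. Klkb1 fell by 0.70 on the log2 scale (SE 0.18, limma adjusted p = 0.0357). The call ended when tumour replicate 7 or any PBS replicate of day 21 was left out (largest limma adjusted p = 0.169), without trend and robust (0.0564), and in the fit to the 6 libraries of day 21 (0.0684). Klkb1 shares 42.7% of its 50-base windows with Gm45753, a model that overlaps it, and with Gm43960, so its counts are uncertain to that extent.

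The kininogens, substrates of kallikrein, lay in the other direction from Klkb1. Kng1 had 40268, 63359 and 49403 in tumour mice, against 32434.5, 28666 and 28763 in PBS mice. Its log2 fold change was 0.75 with no overlap (95% interval 0.26 to 1.23, limma adjusted p = 0.0621). Kng2 had 5046, 7699 and 6056 in tumour mice, against 4265, 4589 and 4106 in PBS mice. It too did not overlap, with a log2 fold change of 0.52 (adjusted p = 0.15). These paralogs share 17.2% of Kng1 windows and 19.4% of Kng2 windows, so reads there could be assigned to either. Kng1 passed in edgeR (0.78, adjusted p = 0.0414), in DESeq2 (0.77, adjusted p = 0.00363) and with total scaling (0.77, adjusted p = 0.0198). The ratio of Kng1 to Klkb1 was 39.2, 44.1 and 32.6 in tumour mice, against 15.7, 12.3 and 14.5 in PBS mice. F12, factor XII, and the proteases Habp2 and Hgfac had log2 fold changes of -0.01, -0.09 and -0.39.

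Among the anticoagulants Pros1 rose and the other 5 had negative log2 fold changes. Pros1 encodes protein S, the cofactor of activated protein C, which is made by hepatocytes and also by endothelial and myeloid cells. It had 1296, 1368 and 1172 in tumour mice, against 681, 572 and 505 in PBS mice. The tumour mice were close to each other, and the lowest was above each PBS mouse. Pros1 rose by 1.13 on the log2 scale (SE 0.19, limma adjusted p = 0.00417), and the call was kept in each alternative run. Of the 3 tumour mice, replicate 8b had the highest Pros1 value, with the lowest monocyte, Kupffer, endothelial, stellate and platelet marker sums. Replicate 9a had the lowest Pros1 value, with the lowest neutrophil marker sum. The part of these cells in Pros1 was not tested.

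Proc, protein C itself, had a log2 fold change of -0.25 (95% interval -0.65 to 0.15). The ratio of Pros1 to Proc was 0.289, 0.216 and 0.196 in tumour mice, against 0.0954, 0.0866 and 0.0835 in PBS mice, with no overlap. The serpins Serpinc1, antithrombin, and Serpind1, heparin cofactor II, had -0.33 and -0.37. Apoh, which binds phospholipid surfaces, had 21591, 29049 and 28996 in tumour mice, against 37543, 35585 and 35489.7 in PBS mice. Its groups were separate, at a log2 fold change of -0.46 (limma adjusted p = 0.167). Proz, protein Z, had -0.11. Serpinc1 exons overlap those of Zbtb37 on the other strand over 58.3% of their length.

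Of the genes of fibrinolysis, none of 3 passed. Plg, plasminogen, and Serpinf2, the plasmin inhibitor, had log2 fold changes of 0.16 and 0.17. Cpb2, a carboxypeptidase that slows clot lysis, had 5909, 10672 and 8529 in tumour mice, against 6037, 5702 and 5327 in PBS mice. Replicate 7 lay within the PBS range and the other tumour mice above it (log2 fold change 0.52, limma adjusted p = 0.179).

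**Figure D3:**
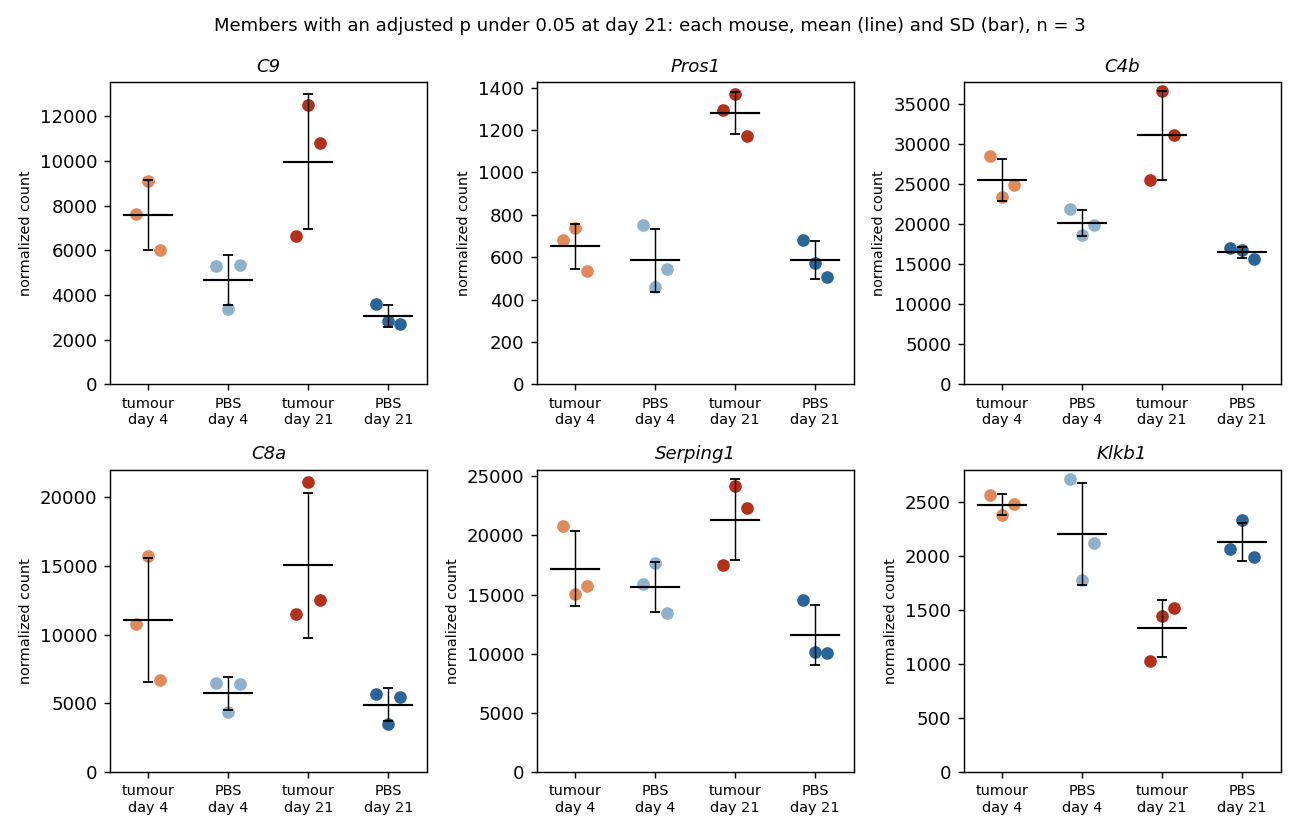
Normalized counts in each mouse (points) of the 6 genes with an adjusted p under 0.05 at day 21, with the mean (line) and SD (bar) of 3 mice per group. C9, Pros1, C4b, C8a and Serping1 are higher and Klkb1 lower in each tumour mouse of day 21 than in each PBS mouse of that day.

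The promoter windows of the called coagulation genes are shown because these genes lay in opposite directions. Capitals mark TTCNNNGAA in Pros1, and in Klkb1 they mark TTGCNNAA and TGTTTAC, a motif of HNF3/FOXA factors. The windows are chr16:62854057-62854306 (plus strand) for Pros1 and chr8:45294836-45295085 (minus strand) for Klkb1, in GRCm38.p6.
Pros1: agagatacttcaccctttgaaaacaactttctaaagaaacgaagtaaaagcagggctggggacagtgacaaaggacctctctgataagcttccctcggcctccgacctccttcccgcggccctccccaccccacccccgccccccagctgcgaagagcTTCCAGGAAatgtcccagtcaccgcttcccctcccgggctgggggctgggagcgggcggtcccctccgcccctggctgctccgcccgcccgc
Klkb1: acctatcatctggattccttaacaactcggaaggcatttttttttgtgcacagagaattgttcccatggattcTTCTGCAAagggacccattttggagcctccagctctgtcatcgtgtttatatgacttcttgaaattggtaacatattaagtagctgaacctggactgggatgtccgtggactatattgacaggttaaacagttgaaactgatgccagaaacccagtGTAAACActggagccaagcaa
The Pros1 match starts at -92 from the RefSeq start site, and the Klkb1 matches start at -177 and -21. In the 32841 promoter windows searched, TTCNNNGAA occurs in 7.02%, TTGCNNAA in 9.57% and TGTTTAC in 3.17%.

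Of the 43 genes, 33 had a RefSeq promoter window among those searched. The same letters were counted on both strands in the 250 bases before their start sites. The called genes C4b and Serping1 had no window, and windows on chromosome 18, where Proc lies, were not searched. TTCNNNGAA was found in 5 of 33 (15.2%), namely C8a, F9, Hgfac, Masp2 and Pros1. Of these, C8a and Pros1 rose, and the other 3 had log2 fold changes of 0.12, -0.39 and 0.02. TTGCNNAA was found in 8 (24.2%), namely C1s1, C3, C9, F11, F9, Habp2, Klkb1 and Kng2, among which C9 rose and Klkb1 fell. The HNF1 motif was found in 4 (12.1%), against 0.371% of all windows. It reads GTTAATCATT in C4bp, AATTATTAAC in F13b, AATAATTAAC in Hc and GTTAATAATT in Habp2, the middle pair on the opposite strand, and starts between -78 and -55. These genes had log2 fold changes from -0.15 to 0.73 at day 21, and none passed. The motif CTGGGAA was in 3 windows (9.09%, against 9.10% of all windows), C1ra, F9 and Masp2, and in F9 and Masp2 it overlaps the TTCNNNGAA match. TGTTTAC was in 3, Apoh, F11 and Klkb1. CAAAGTCCA for HNF4 and GGGAC followed by TTTCC for NF-kB were in 0 of 33, against 0.384% and 0.14% of all windows.

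Complement and coagulation genes were compared within each library as well. For each library the median deviation of a class from the mean over 12 libraries was taken, and the coagulation median was subtracted from the complement median. This difference was 0.35, 0.40 and 0.17 on the log2 scale in tumour mice of day 21, against -0.12, -0.16 and -0.10 in PBS mice of day 21. The tumour and PBS mice did not overlap. At day 4 it was 0.15, 0.14 and -0.11 in tumour mice, against -0.21, -0.21 and -0.06 in PBS mice, where tumour replicate 3 lay within the PBS range. The fitted medians differed by 0.47 at day 21 and by 0.05 at day 4. Leaving out 1 library of day 21 gave 0.38 to 0.54 at that day, which the libraries of day 4 cannot change.

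The separate medians depended more on the library. Without tumour replicate 7 the day 21 medians were 0.65 for complement and 0.16 for coagulation genes, and without replicate 8b they were 0.27 and -0.11. Complement genes took 3.24% ± 0.562 of the reads in tumour mice and 2.07% ± 0.0936 in PBS mice at day 21 (SD, n = 3 each), with C3 the main part. Coagulation genes took 2.01% ± 0.273 in tumour mice and 1.91% ± 0.0654 in PBS mice.

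**Figure D4:**
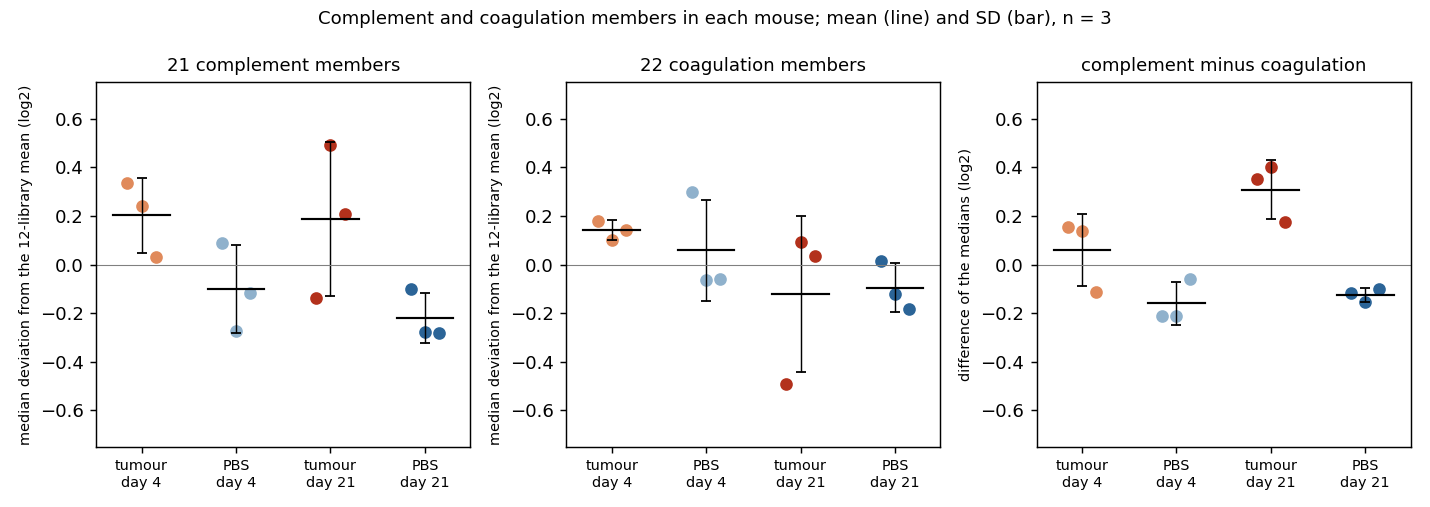
Median deviation (log2) of the 21 complement genes and of the 22 coagulation genes from their mean over 12 libraries, and the difference of these medians, for each mouse (points), with the mean (line) and SD (bar) of 3 mice. The difference is 0.17 to 0.40 in tumour mice of day 21 and -0.16 to -0.10 in PBS mice of day 21.

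**Figure D5:**
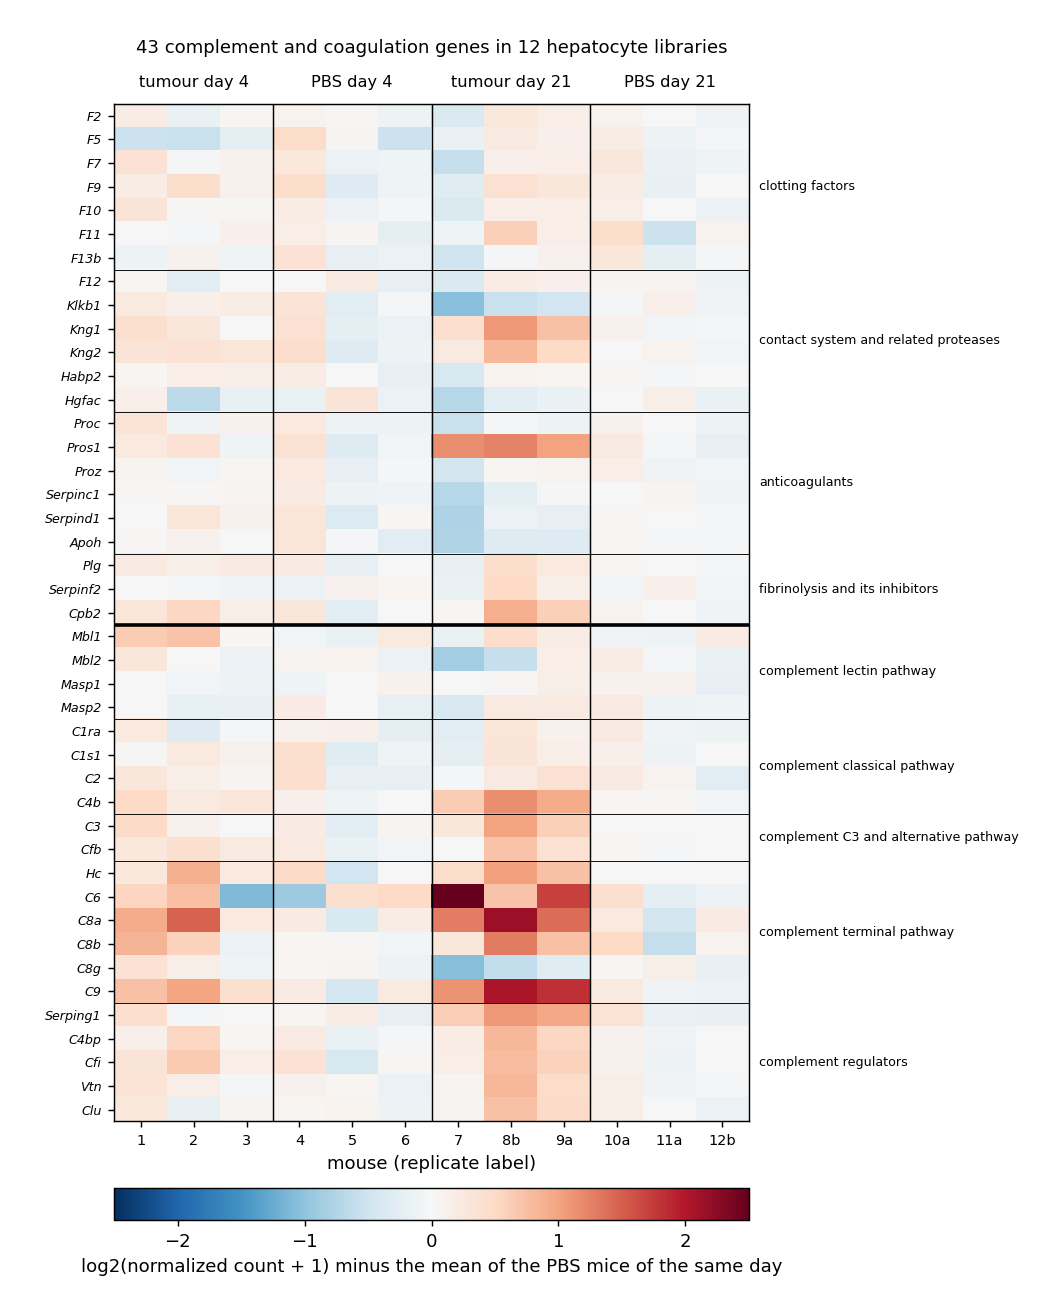
Each of the 43 genes (by class) in each of the 12 libraries, as log2(normalized count + 1) minus the mean of the PBS mice of the same day. In tumour mice of day 21 the terminal pathway and the regulators are mostly red, Klkb1, C8g and Apoh are blue, and replicate 7 has the lowest value of the 3 tumour mice for 41 genes.

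At day 4 no gene of the 43 passed. Over all genes limma called 0.0% at day 4 (0 of 12631, with 761 at an unadjusted p under 0.05), edgeR called 0 (738 unadjusted) and DESeq2 called 1 (759 unadjusted), which is none of the 43. Among the 43, 3 had an unadjusted p under 0.05, against 6.02% of all genes, so that count is near the background. They were C8a, C9 and Mbl1. C8a had 10751, 15715 and 6725 in tumour mice, against 6472, 4343 and 6383 in PBS mice (log2 fold change 0.89, limma adjusted p = 0.815). C9 had 7622, 9106 and 6013 in tumour mice, against 5276, 3378 and 5364 in PBS mice (0.71, adjusted p = 0.815). Both were separate between the groups, tumour replicate 3 being the closest to the PBS mice. Mbl1 had 2929, 3093 and 1956 in tumour mice, against 1798, 1686 and 2244 in PBS mice, and overlapped (0.46, adjusted p = 0.815).

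C4b was also higher without overlap at day 4 (log2 fold change 0.34), which made 3 of 43 genes, against 4.53% of all genes. The log2 fold change was positive for 35 of 43 genes, against 45.5% of all genes. The median was 0.17 over the complement genes, 0.12 over the coagulation genes and -0.03 over all genes tested. The terminal pathway had 6 of 6 positive, with a median of 0.44. C8g, lower in each tumour mouse of day 21, had 0.13 at day 4. The neutrophil marker sum was 994.4 to 4133 in tumour mice and 355.1 to 456.4 in PBS mice at day 4. Most of that sum was Lcn2, with a mean of 2184 in tumour mice and 338.2 in PBS mice. The sum at day 4 is thus mainly a reading of Lcn2. Of the remaining neutrophil markers, Retnlg and Csf3r had lower means in tumour mice of day 4, and the others had higher ones. These means were low and variable, the largest in tumour mice being that of S100a9 (53.5 with an SD of 67.1, against 14.9 in PBS mice). The part of neutrophils in the day 4 values was not tested.

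The tumour effects of the 2 days were compared in the same fit, as the day 21 effect minus the day 4 effect. None of the 43 genes passed in limma, against 0.641% of all genes called higher and 0.0475% called lower. At an unadjusted p under 0.05 there were 6 of 43, against 13.3% of all genes. EdgeR also called none, and no gene in the table passed there (1754 at an unadjusted p under 0.05). The smallest unadjusted p-values were those of Pros1 (0.96 on the log2 scale, 95% interval 0.38 to 1.55, limma adjusted p = 0.13), Klkb1 (-0.88, adjusted p = 0.144) and C8g (-0.80, adjusted p = 0.227). At day 4 Pros1 had 683, 737 and 533 in tumour mice, against 751, 459 and 545.5 in PBS mice. Klkb1 had 2565, 2372 and 2478 in tumour mice, against 2711, 1779 and 2122 in PBS mice. C8g had 7134, 6225 and 5194 in tumour mice, against 5816, 5878 and 5112 in PBS mice. All 3 overlapped at day 4. DESeq2 called Pros1 (0.97, adjusted p = 0.0329) and Klkb1 (-0.84, adjusted p = 0.0463), against 3.23% of all genes called higher there and 0.562% lower. Array weights called Pros1 (1.05, adjusted p = 0.0495) and C9, against 1.81% of all genes called higher.

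PBS mice of day 21 were compared with PBS mice of day 4 to see how the genes differed with no tumour. None of the 43 passed, and limma and edgeR called 0 of all genes (0.0%, with 504 and 469 at an unadjusted p under 0.05), while DESeq2 called 5 lower, none of the 43. The log2 fold change was positive for 4 of 43 genes, against 48.1% of all genes, with a median of -0.18 over the 43 and -0.01 over all genes. With total scaling in place of the deposited size factors the median of all genes was 0.18, so directions between the days depend on the scaling. C2 had 768, 704 and 543 in PBS mice of day 21, against 1207, 781 and 781 in PBS mice of day 4 (-0.44, limma adjusted p = 0.938), with no overlap. C9 had 3605, 2843 and 2723 in PBS mice of day 21, against 5276, 3378 and 5364 in PBS mice of day 4 (-0.59, limma adjusted p = 0.938). Serping1 had 14515, 10119.7 and 10067 in PBS mice of day 21, against 15909.7, 17652 and 13429 in PBS mice of day 4 (-0.45, adjusted p = 0.938). These 2 overlapped. C9, C2 and Serping1 had the smallest p-values, and 2 of 43 had an unadjusted p under 0.05, against 3.99% of all genes. Besides C2, the genes Kng1, Hgfac, C4b and Vtn were lower without overlap in PBS mice of day 21, and C6 was higher. Over all genes 4.51% were lower without overlap and 5.44% higher. C4b, called higher in tumour mice of day 21, had a log2 fold change of -0.29 between the PBS days (limma adjusted p = 0.938).

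Levels were compared between genes only per kilobase of annotated exon. The length used counts every annotated exon of a gene, so the order depends on the annotation. Serpinc1, with 5045 bases, had a mean of 41880 in PBS mice of day 21 but 8302 per kilobase. In tumour mice of day 21 the order was C3 at 48870, Vtn at 26990, Apoh at 22310, Plg at 20900 and Kng1 at 16380 mean normalized counts per kilobase. In PBS mice of day 21 it was C3 at 30940, Apoh at 30430, Vtn at 19310, Plg at 18430 and F2 at 15150. C6 was lowest, at 129.8 in tumour mice and 32.9 in PBS mice. Pros1 had 387 per kilobase in tumour mice and 177 in PBS mice, and Proc had 3417 in tumour mice and 4021 in PBS mice. In PBS mice C3 and Apoh differed per kilobase by less than the SD of Apoh between mice.

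Several of the genes are neighbours in GRCm38 and were counted apart. C8b and C8a lie next to each other on chromosome 4 (104766317 to 104804548, plus strand, and 104815679 to 104876398, minus strand) and had day 21 log2 fold changes of 0.77 and 1.60. C8g is on chromosome 2 (25498651 to 25501719, minus strand). F11 and Klkb1 adjoin on chromosome 8 (45241174 to 45262031 and 45266689 to 45294859, both minus strand) and had 0.22 and -0.70. F7, F10 and Proz follow one another on the plus strand of chromosome 8 (13026034 to 13076026) and had -0.09, -0.02 and -0.11. C9 is on chromosome 15 (6445327 to 6498751, plus strand), Pros1 on chromosome 16 (62854307 to 62929346, plus strand), C4b on chromosome 17 (34728380 to 34743882, minus strand) and Serping1 on chromosome 2 (84765387 to 84775444, minus strand). C2 and Cfb share 38.7% and 73.0% of their 50-base windows with the readthrough model Gm20547, and C1ra shares 50.8% of its windows with C1rb and Gm18840, so their counts are uncertain.

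The rest of the complement system was examined through a list of 35 other genes, of which 30 were tested, and 27 of those had a mean of at least 10 in PBS mice of day 21. Of these 27, 4 were higher and 1 lower at day 21, against 5.42% and 2.44% of all genes tested. Their median was 0.46. The other 3 reached the mean of 10 through other groups, among them Fcnb and Itgam, which are therefore given as levels only. Fcnb, a ficolin of myeloid cells in the mouse, had 1490 reads over the tumour mice and 0 over the PBS mice. It was thus at least 580-fold higher against a floor of 3 reads over the group. That bound rests on pooled reads and does not cover the spread between mice. The Fcnb mean in tumour mice was 416.1 normalized counts with an SD of 482.2. Itgam, the alpha chain of complement receptor 3 on leukocytes, averaged 155.6 normalized counts (SD 156.7) in tumour mice and 2.83 (SD 1.48) in PBS mice. Itgb2, its beta chain, had a log2 fold change of 3.48 (limma adjusted p = 0.0136, or 0.0612 without PBS replicate 12b), and C5ar1, the receptor for C5a, had 3.29 (0.00647). These 4 genes were high in tumour mice of day 21, as were the neutrophil and monocyte marker sums. Itgam is itself 1 of the monocyte markers. The part of neutrophils and monocytes in these 4 genes was not tested. Cd59a, a membrane inhibitor of the pore, had a log2 fold change of -0.55 (limma adjusted p = 0.0495). That call was lost in 6 of 11 other alternatives and in 9 of 12 fits that left out a library (largest adjusted p = 0.232, without tumour replicate 7).

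Of 38 other coagulation genes 31 were tested, and 25 of those had a mean of at least 10 in PBS mice of day 21. Of these 25, 1 was higher and 0 were lower at day 21, against 5.42% and 2.44% of all genes tested. That count is near the background, and the median was 0.15. The other 6 reached the mean of 10 through other groups, and F13a1, Plaur, A2m and Serpina5 among them are given as levels only. F13a1 encodes the A subunit of factor XIII, which in blood comes from monocytes and platelets. It had 601 reads over the tumour mice and 1 over the PBS mice, a ratio of 701 (95% counting interval 125 to 27700). That interval covers the counting of pooled reads and not the spread between mice. The F13a1 mean in tumour mice was 176.8 normalized counts with an SD of 167.2. F13b, the liver-made B subunit, had a log2 fold change of -0.15. Plaur, the urokinase receptor, averaged 75.1 normalized counts (SD 72.1) in tumour mice and 1.36 (SD 0.476) in PBS mice. A2m, a broad protease inhibitor, averaged 55.5 (SD 69.0) in tumour mice against 1.36 (SD 0.476) in PBS mice. Serpina5, protein C inhibitor, averaged 30.6 (SD 11.2) in tumour mice against 3.20 (SD 2.17) in PBS mice. Serpina10, the inhibitor that acts with protein Z, had 5812, 10875 and 6707 in tumour mice, against 3889, 3187 and 3667 in PBS mice. It rose by 1.07 (limma adjusted p = 0.0133), with no overlap between the groups. The adjusted p was 0.0575 without PBS replicate 11a, 0.0514 without 12b and 0.0572 in the fit to the 6 libraries of day 21. The 3 fibrinogen chains, the substrate of thrombin, all rose, Fga by 1.30, Fgb by 1.16 and Fgg by 1.17 (limma adjusted p = 0.0173, 0.0298 and 0.0274). All 3 calls were lost in the fit to the 6 libraries of day 21 (0.055, 0.0754 and 0.073) and without PBS replicate 10a (0.0677, 0.101 and 0.0996) or 12b (0.0652, 0.0874 and 0.0855). Those of Fgb and Fgg were also lost without tumour replicate 8b (0.0788 and 0.0736) or PBS replicate 11a (0.0723 and 0.0584). For comparison, 18 of 20 acute-phase genes rose, against 5.42% of all genes, with a median of 1.93. Of 17 constitutive plasma protein genes 0 passed, with a median of -0.16. The complement median of 0.45 lay between those of the acute-phase and constitutive genes. The coagulation median of -0.01 was nearer to that of the constitutive genes.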

How the data were processed

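RNA of dissociated mouse hepatocytes, polyA selected, was measured in 12 libraries, and each library was placed in its group by its own title. Per the submitters' processing notes, the tools were cutadapt, STAR 2.4.2a, HTSeq and DESeq2, and the build was GRCm38. For the read counting, neither annotation nor strand setting is given in the sources used here. The deposited values are a normalized signal: gene counts divided by 1 size factor per library by the authors, with no correction for gene length. From the spacing of low values in each library whole reads were recovered (100.0% of values within 0.1 of a whole number), giving depths of 9375095 to 21809166 reads. These recovered reads served the alternatives only.

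Of 15910 genes, the 12631 whose mean normalized count reached 10 or more were fitted with limma 3.58.1 (lmFit, eBayes with trend and robust, R 4.3.3) on log2(value + 1), 1 mean per group, all 12 libraries. P-values were adjusted by Benjamini-Hochberg over the whole tested set, with a threshold of 0.05. The fit was tested on simulated data. Mice were the replicates, so p-values measure the spread between mice. Each fold change is a difference of means of log2(value + 1), and SE is limma's standard error.

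The 43 members, the lists of other genes and the markers were chosen with earlier results of these data known. No test was run over a list. Each list is described by its counts and median. Values in every library are given for members past the threshold at day 21, for the 3 members with the smallest unadjusted p in each other comparison, and for Mbl1, Mbl2, Kng1, Kng2, F2, C3 and Hc whatever their values. C6, C8b, C8g, Apoh and Cpb2 were added after their values were seen. Of the other complement and coagulation genes, up to 6 past the threshold were named, in order of p, and 1 is not reported here. Alternatives were edgeR 4.0.16 and DESeq2 1.42.0 on recovered reads, other pseudocounts, filters and scalings, array weights, limma without trend and robust, a fit to the 6 libraries of a day, and each library left out in turn. Positions and exon lengths are from GENCODE M21 (GRCm38), and 15892 gene identifiers matched it. Promoter sequences are from RefSeq (GRCm38.p6).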

Additional observations from a re-analysis of the deposited data

Results flagged for a closer look

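For Fcnb the day 21 tumour effect minus the day 4 tumour effect was 7.09 on the log2 scale. Fcnb had 1490 reads over the tumour mice of day 21, 5 over those of day 4 and 0 over the PBS mice of either day. The difference kept its direction in each alternative run, which with such reads could hardly turn out otherwise. For F13a1 the same difference was 7.52. Both genes passed the filter on low values only through the tumour mice of day 21, the group in which they were high. A test on genes selected in that way cannot decide whether the effects differ, so no p-value is given. Both genes had at most 1 read over the PBS mice of day 21, so these fitted values depend on the pseudocount. Neither is among the 43 genes.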

How the results depend on the processing

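At day 21 the count of members called higher was 5, and it was 10 in DESeq2, 16 with array weights and 3 to 6 with 1 library left out. Of all genes, DESeq2 called 9.46% higher and 4.62% lower and array weights 9.15% and 5.18%, against 5.42% and 2.44% in limma. Array weights give each library its own weight, and replicate 7 had 0.375, the lowest of the 12. The count called lower was 1, and it was 2 in DESeq2, 2 with total scaling, 0 without trend and robust, 0 in the fit to the 6 libraries of day 21 and 0 to 3 with 1 library left out. Of all genes, 2.32% were called lower with total scaling, 1.75% without trend and robust and 1.12% in that fit to 6 libraries. The count of members was 0 without tumour replicate 7 and without each of the PBS day 21 replicates 10a, 11a and 12b. In those runs 0.567%, 1.34%, 0.894% and 0.554% of all genes were called lower, in that order. Without tumour replicate 9a the count was 3 (C8g, Klkb1 and Mbl2), with 3.66% of all genes called lower. PBS day 21 replicate 11a, left out, gave 3 higher (C8a and Serping1 lost), as did 12b (C4b and Serping1 lost). Calls over all genes fell there too, to 3.0% higher without 11a and 2.43% without 12b. For the difference of tumour effects, DESeq2 called 1 higher and 1 lower, and array weights called 2 higher, where limma called 0 in each direction. At day 4 and between the PBS days no alternative called a member. The complement minus coagulation difference at day 4 was 0.05, or 0.17 with means in place of medians, and 0.049 to 0.18 with 1 library left out. At day 21 it was 0.42 to 0.48 in the other alternatives. The cause of these differences was not tested.

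Small day 21 log2 fold changes of members that never passed changed sign. With TMM scaling F2 had -0.0068 and Masp2 -0.0008. With array weights F7 had 0.12, F10 0.16, F13b 0.011, F12 0.15, Habp2 0.0082 and Proz 0.042. F10 and F12 had 0.012 and 0.016 in edgeR, 0.0039 and 0.0083 in DESeq2, and 0.011 and 0.014 with total scaling. With 1 library left out the ranges were -0.10 to 0.21 for F2, -0.025 to 0.18 for F5, -0.22 to 0.15 for F7, -0.0082 to 0.33 for F9, -0.11 to 0.16 for F10, -0.046 to 0.44 for F11, -0.27 to 0.024 for F13b, -0.11 to 0.16 for F12, -0.18 to 0.069 for Habp2, -0.21 to 0.064 for Proz, -0.0022 to 0.33 for Serpinf2, -0.041 to 0.12 for Masp1, -0.079 to 0.23 for Masp2, -0.087 to 0.21 for C1ra and -0.041 to 0.24 for C1s1. These are 41 sign changes among the single-gene values under alternatives. Of those values 1428 kept their direction and their side of the threshold, 71 dropped out of it and 28 newly passed it. Part of this agreement was fixed in advance. Leaving out a library of 1 day cannot change a tumour effect of the other day. Other filters, the fit without trend and robust and the fit to the 6 libraries of a day also keep the fold change as it was. No paired analysis was possible because the groups share no replicate numbers. With 3 mice a group, intervals are wide for the most variable members, and C6 had the widest of the 43 at day 21.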
